A study of Trichoplusia ni and Spodoptera exigua with 20 samples.

Results

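The comparison described here sets fat body of *T. ni* larvae that consumed sulforaphane (SFN) against fat body of control larvae. Its members were chosen by the labels and by abundance: the 4 libraries labelled *T. ni*, fat body, SFN, the 3 labelled *T. ni*, fat body, control, and every gene with a mean CPM over 10 in these 7 libraries, CPM being counts scaled to a common library total. This kept 5772 of the 14384 genes in the count table, of which 13300 had at least 1 count in the 7 libraries. The whole series holds 20 libraries. The SFN larvae ate an artificial diet whose surface was covered with 70 mM SFN in ethanol (EtOH), and the control larvae ate the same diet with EtOH alone. In both cases the EtOH was evaporated before feeding. All larvae were wild type (labelled WT), reared in single wells at 25°C with antibiotics in the diet, and dissected at about Day 10. Each library pooled the fat bodies of 3 to 5 larvae, so differences between larvae within a pool were not measured. The labels do not give the sex of the larvae. A further 4 libraries of *T. ni* fat body came from larvae given 330 µM trichostatin A (TSA), and their values are given beside some results. They share the control libraries.

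The cabbage looper *T. ni* feeds on cruciferous plants, which release SFN from a glucosinolate when their tissue is crushed. SFN is known, from work in mammals, as an inhibitor of histone deacetylases, the enzymes that take acetyl groups off histones and so tend to close chromatin. TSA is a microbial compound used as a broad inhibitor of the same enzymes. The fat body of a caterpillar does the work of liver and adipose tissue: it stores fat, glycogen and protein, makes most proteins of the hemolymph, and takes part in detoxification and immunity. The comparison asks which transcripts of this tissue differ when the larva has fed on SFN. The count table names genes by identifiers such as Tni12G00520, in which the number before the G is the chromosome. Of these identifiers 0 could be matched to a gene name with the tables at hand, so functions, pathways and fat body markers could not be checked and no sequence is shown.

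The SFN libraries held 17184377 to 23518486 counts and the control libraries 18681299 to 20462975. Values below are CPM after scaling by the trimmed mean of M-values (TMM), a method that aims to set the bulk of genes level between libraries. The TMM factors spanned 0.608 to 1.26 in SFN libraries and 0.780 to 2.10 in control libraries, the highest being that of control replicate 3. The 10 most abundant genes of each library held 50.5%, 42.7%, 25.6% and 33.3% of the counts in SFN replicates 1 to 4, against 51.4%, 35.5% and 21.0% in control replicates 1 to 3. The groups overlapped, with 38.0% ± 10.9 (SD, n = 4) under SFN and 36.0% ± 15.2 (SD, n = 3) in control (two-sided exact permutation test, p = 0.857; the smallest p that 4 against 3 libraries allow is 0.0571). SFN libraries resembled each other more than control libraries did: Spearman's rho across genes was 0.7499 to 0.924 within SFN, 0.601 to 0.738 within control and 0.184 to 0.652 between them. These describe genes that share a library and are not independent. Control replicate 3 and SFN replicate 4 carry a later library code than the other 5 libraries, so results are also given without them.

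Under SFN, the expression of 567 genes differed from control, which is 9.82% of those tested. Of these, 369 fell (6.39%) and 198 rose (3.43%), by the quasi-likelihood test of edgeR at a threshold of 0.05 on the p adjusted over all tested genes (Benjamini-Hochberg). The falls were deep: the median log2 fold change (SFN over control) was -3.26, and 126 genes fell by 4 log2 units or more. The rises had a median of 2.51, and 15 genes rose by 4 or more. Over all tested genes the median was 0.23. Every SFN library lay below every control library in 368 of the 369 falls and above every control library in 188 of the 198 rises. This held for 22.5% (below) and 17.5% (above) of all tested genes. Such separation follows in large part from calling the genes on the same libraries. The lowest adjusted p was 0.0323, so that every call lay close to the threshold, and 2233 genes had an unadjusted p under 0.05 (1259 lower and 974 higher under SFN).

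Which genes were called depended on the libraries in the fit. The same edgeR test called 0 genes without SFN replicate 4, without control replicate 1, without control replicate 2 or without control replicate 3, where 1538 to 2062 genes still had an unadjusted p under 0.05. It called 13 genes without SFN replicate 1, 281 without SFN replicate 2 and 1130 without SFN replicate 3. In these fits, in that order, 0, 188 and 357 of the 369 falls stayed called, and 10, 50 and 36 of the 198 rises. Most falls thus did not need SFN replicate 3. Within the earlier library code (3 SFN and 2 control libraries) it called 0 genes, with 947 at an unadjusted p under 0.05. In these 5 libraries all 369 falls and all 198 rises kept their direction, with a median difference in log2 CPM of -2.93 and 2.79. Between the libraries of the later code, SFN replicate 4 and control replicate 3, the medians were -4.45 and 1.91, again with every gene in its own direction. For the 368 falls and 188 rises whose groups do not overlap, this direction was fixed in advance in any subset of the libraries. It is therefore no check of one library code by the other. With the library code as a term in the fit, edgeR called 0 genes, with a lowest adjusted p of 0.0714 and 2111 genes at an unadjusted p under 0.05.

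The share of falls depended on the scaling. With TMM, 65.1% of the called genes fell. With DESeq2's size factors in edgeR it was 92.6% (315 fell and 25 rose), and with library size only 97.3% (1155 fell and 32 rose). The median log2 fold change over all genes was 0.01 and -0.32 in these fits, against 0.23 with TMM. Whether a rise of moderate size was called thus depended on the scaling. Of the 369 falls, 303 stayed called with DESeq2's size factors and 366 with library size only. Of the 198 rises, 24 and 17 stayed called. DESeq2's Wald test called 2180 genes, of which 1443 fell, and edgeR's likelihood ratio test 1698, of which 1165 fell. The 2180 genes included 364 of the 369 falls and all 198 rises, and the 1698 included all of both. Both tests call more genes from the same libraries, so this overlap is no independent check. At a mean CPM over 1, all 369 falls but only 76 of the rises stayed called. At a mean CPM over 50, where 1991 genes were tested, 65 falls and 0 rises did. Many calls were too low to be tested there, as 263 falls and 119 rises averaged under 30 CPM after TMM scaling. Each filter also changed the scaling: the median log2 fold change was -0.10 at a mean CPM over 1 and -0.09 at a mean CPM over 50.

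**Figure D1:**
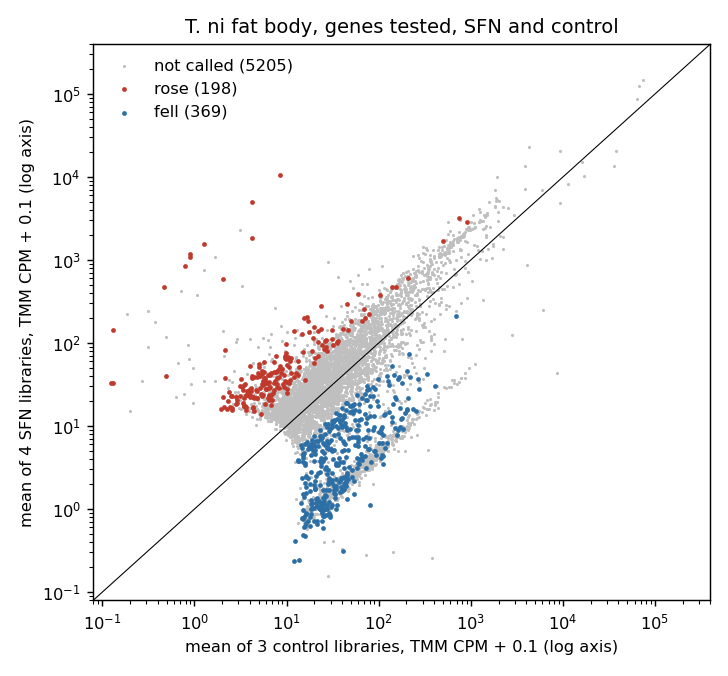
Mean TMM-normalised expression of the 5772 tested genes in the 4 SFN libraries (vertical axis) and the 3 control libraries (horizontal axis), in CPM plus 0.1 on log axes. The 369 genes that fell lie below the diagonal and the 198 that rose above it, and many uncalled genes lie as far below it as the called ones.

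The genes that fell were mostly of moderate abundance in control. Their mean level had a median of 4.87 CPM under SFN and 34.3 CPM in control. By mean CPM over the 7 libraries, 8.79% of the 2992 genes under 30 CPM fell, 5.28% of the 1799 genes between 30 and 100, 1.30% of the 844 between 100 and 1000, and 0 of the 137 above 1000. The rises were spread more evenly over the same classes, at 3.98%, 2.78%, 2.73% and 4.38%. These means include the SFN libraries, so a deep fall itself puts a gene in a lower class. The median log2 fold change of all tested genes also differed between the classes, at 0.03, 0.25, 0.84 and 1.25. The shares therefore cannot be read as an effect of abundance. As a part of each library, the falling genes made up 0.207%, 0.316%, 0.286% and 0.207% of all counts in SFN replicates 1 to 4, against 1.25%, 2.199% and 5.81% in control replicates 1 to 3. The groups did not overlap, which follows largely from choosing these genes as lower under SFN in the same libraries. Control replicate 3 held more of these transcripts than the other controls. The rising genes took 1.09%, 3.67%, 5.28% and 5.67% in SFN libraries, against 0.438%, 0.432% and 1.11% in control libraries. SFN replicate 1 was just below control replicate 3 on this measure.

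Of the falls that were abundant in control, Tni16G00180 had the highest control level. It measured 169, 219, 196 and 251 CPM in SFN replicates 1 to 4, against 509, 634 and 907 CPM in control replicates 1 to 3. All SFN libraries were below all control libraries, and the log2 fold change was -1.71 (standard error 0.39, adjusted p = 0.0436 by edgeR's quasi-likelihood test, as for all genes below). Tni19G02040 fell further, with 39.0, 55.6, 13.3 and 11.7 CPM under SFN against 299, 279 and 645 CPM in control (log2 fold change -3.77, standard error 0.72, adjusted p = 0.0328). Tni21G01240 measured 57.7, 63.6, 21.1 and 24.6 CPM under SFN and 249, 297 and 460 CPM in control. In Tni19G02040 and Tni21G01240 SFN replicates 1 and 2 kept more of the transcript than SFN replicates 3 and 4. Tni29G01070 had the most even controls of the group, with 29.9, 52.5, 14.5 and 14.4 CPM under SFN and 249, 280 and 290 CPM in control (log2 fold change -3.30, standard error 0.57). Tni17G01100 measured 37.4, 53.7, 31.8 and 25.6 CPM under SFN against 211, 216 and 381 CPM in control. In the TSA libraries each of these 5 genes was below every control as well, from 4.64 to 9.21 CPM in Tni29G01070 and from 134 to 211 CPM in Tni16G00180. Whether SFN and TSA differ here was not tested.

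Among called genes the largest fall by fold was that of Tni08G04760. It measured 0.0921, 0.184, 0.323 and 0.246 CPM in SFN replicates 1 to 4, which are 1, 3, 7 and 5 counts, against 2.74, 93.2 and 26.5 CPM in control replicates 1 to 3. The groups did not overlap, but the controls differed among themselves by more than 30 times, and the log2 fold change was -7.50 (standard error 1.20, adjusted p = 0.0323). This gene was not low under TSA, with 30.1, 14.6, 218 and 2.67 CPM in TSA replicates 1 to 4. Tni06G00100 measured 0.0921, 0.0612, 0.277 and 0.148 CPM under SFN, 6.67, 3.80, 11.7 and 0.281 CPM under TSA, and 0.823, 9.61 and 29.999 CPM in control, so that TSA replicate 4 alone of the TSA libraries was below every control. Both were all but absent from SFN pools and very uneven among control pools. Tni05G00350 measured 0.184, 0.184, 0.138 and 0.0493 CPM under SFN against 0.823, 1.21 and 33.9 CPM in control, so that its control mean rests on control replicate 3 (adjusted p = 0.0445).

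The next 5 falls by fold, among called genes whose groups did not overlap, had steadier controls. None of these 5 passed the CPM filter in the fit without control replicate 3, and neither did Tni06G00100 or Tni05G00350. Their tests thus rest on that library. Tni08G04760 was tested without control replicate 3 (log2 fold change -7.89) but not called (adjusted p = 0.0693, edgeR's quasi-likelihood test). It did not pass the filter without control replicate 2, which held 2318 of its counts against 40 and 1137 in control replicates 1 and 3. Tni22G01350 measured 0.8293, 0.734, 0 and 0.394 CPM under SFN against 14.0, 14.0 and 46.2 CPM in control (log2 fold change -5.70, standard error 1.09). Its 0 counts in SFN replicate 3 allow up to 0.138 CPM, the level of 3 counts in that library. Tni26G01530 measured 1.01, 1.47, 0.138 and 0.345 CPM under SFN against 14.4, 15.1 and 59.6 CPM in control (log2 fold change -5.35, standard error 0.95). Tni22G04890, Tni19G03190 and Tni26G02040 had log2 fold changes of -5.42, -5.40 and -5.31, with no more than 2.08 CPM in any SFN library and at least 11.1 CPM in every control library. All 5 were higher in SFN replicates 1 and 2 than in SFN replicates 3 and 4, where they lay between 0 and 0.394 CPM. In the TSA libraries they lay between 0 and 0.211 CPM. Tni09G00760, known from an earlier fit of these data, fell too, with 4.61, 9.79, 0.783 and 1.92 CPM under SFN against 58.8, 151 and 128 CPM in control (log2 fold change -4.72, standard error 0.90, adjusted p = 0.0328). The 1 fall in which the groups overlapped was Tni06G00080, named here after its values were seen. Its log2 fold change was -6.33, and it measured 0.8293, 2.45, 0.461 and 0.296 CPM under SFN against 158, 85.03 and 0.630 CPM in control, so that control replicate 3 was within the range of the SFN libraries.

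**Figure D2:**
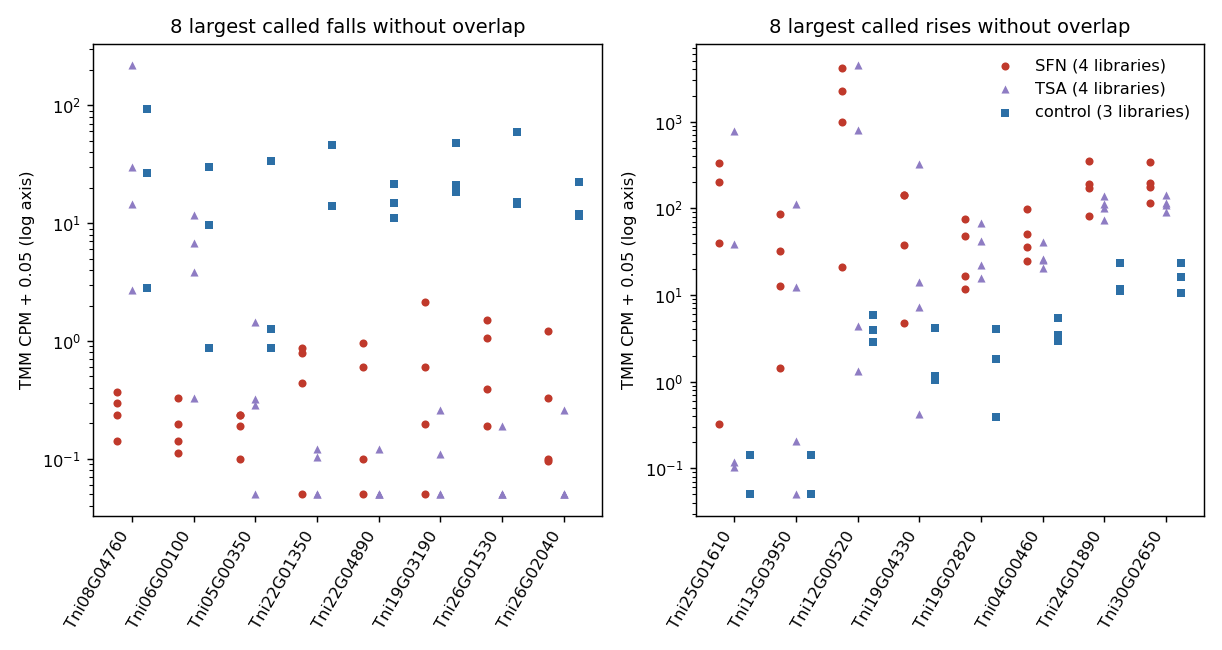
Expression of the 8 largest falls (left) and the 8 largest rises (right), chosen among called genes whose SFN and control libraries do not overlap, in each SFN, TSA and control library, in TMM-normalised CPM plus 0.05 on a log axis; each point is 1 library. By this choice every SFN point lies beyond every control point, and in the first 4 rises the SFN libraries spread over far more than their gap to control, with the lowest SFN point that of replicate 1.

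Over all 369 falling genes the SFN libraries were not alike. The median level was 5.25, 6.55, 2.49 and 2.81 CPM in SFN replicates 1 to 4, against 27.3, 29.7 and 46.6 CPM in control replicates 1 to 3. SFN replicates 3 and 4 held 133 and 130 of the genes at under 1 CPM, SFN replicates 1 and 2 only 28 and 8, and the control libraries 2, 0 and 1. The lowest SFN value belonged to replicate 3 in 227 genes, and the highest belonged to replicate 2 in 266. Among controls, replicate 3 had the highest value in 328. The 5 falls with the widest range over SFN libraries were all lowest in SFN replicate 3 and highest in SFN replicate 2. Tni19G02960 measured 4.51, 11.5, 0.277 and 0.985 CPM under SFN against 85.5, 79.2 and 163 CPM in control (log2 fold change -4.66, standard error 1.17, adjusted p = 0.0494). Tni27G02080 measured 1.66, 6.36, 0.138 and 3.79 CPM under SFN against 75.03, 78.9 and 22.2 CPM in control, and here it was control replicate 3 that was low. Tni11G03450, Tni09G01580 and Tni17G02740 had 0.0461 CPM or less in SFN replicate 3, between 0.8293 and 3.73 CPM in SFN replicates 1 and 2, and 24.9 CPM or more in every control library.

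**Figure D3:**
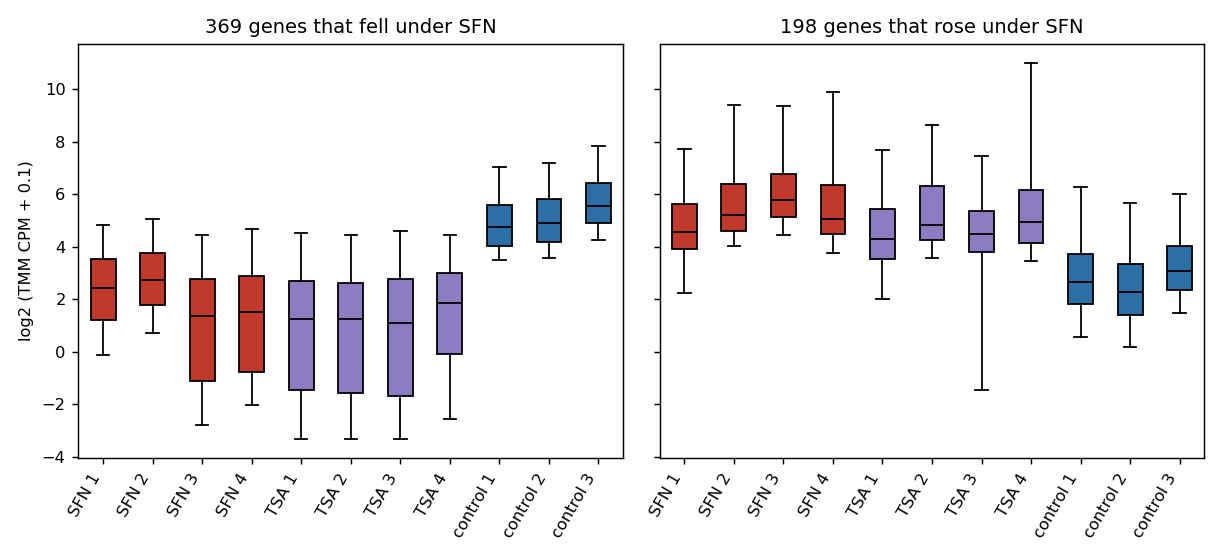
Distribution of log2 TMM-normalised CPM (plus 0.1) of the 369 genes that fell (left) and the 198 that rose (right) in each library, as boxes of the quartiles with the median and whiskers at the 5th and 95th percentiles. SFN replicates 3 and 4 and the TSA libraries reach far lower among the falls than SFN replicates 1 and 2, whose median is 5.25 and 6.55 CPM against 27.3 CPM or more in each control library.

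Most of the deepest falls were not called. Of 752 tested genes with a fitted fall of 4 log2 units or more, 126 passed and 626 did not. Over all 5772 tested genes 567 were called (9.82%), 369 of them as falls (6.39%). Among 3922 genes at 10 CPM or more in every control library, 45, 5, 754 and 646 were under 1 CPM in SFN replicates 1 to 4, that is 1.15%, 0.127%, 19.2% and 16.5%. Of the 646 genes of SFN replicate 4, 634 were among the 754 of SFN replicate 3. Those under 1 CPM in both but at 1 CPM or more in SFN replicates 1 and 2 numbered 589, a set chosen by these values and described without a test. Against the mean of the controls the median gene of this set stood at 7.24% in SFN replicate 1 (quartiles 6.08% and 8.81%), 11.2% in SFN replicate 2 (9.85% and 12.9%), 0.0734% in SFN replicate 3 (0% and 0.204%) and 0.757% in SFN replicate 4 (0.573% and 1.02%). The control replicates themselves stood at 72.7% (67.3% and 77.7%), 76.7% (71.0% and 82.5%) and 151% (140% and 161%). The quartiles lay close to the median in SFN replicates 1 and 2 and in the controls, and further from it in SFN replicate 4. In SFN replicate 3 the median gene was at 0.0461 CPM, where 3 counts are 0.138 CPM, so no ratio can be read there. In RNA from whole pooled tissue, fewer cells of a type and less RNA per cell cannot be told apart, and neither can fewer larvae in a pool that carry the transcripts, or another tissue taken along with the fat body in unequal amounts when the larvae were dissected. This holds for all the deep falls given here, and no marker of another tissue could be checked. Of the 589, edgeR called 88 (14.9%), against 6.39% called as falls over all tested genes. Their median log2 fold change was -4.37 with a median standard error of 1.30 and a median adjusted p of 0.0594. In TSA replicates 1 to 4 the median gene stood at 0%, 0%, 0.0686% and 0.760% of control.

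**Figure D4:**
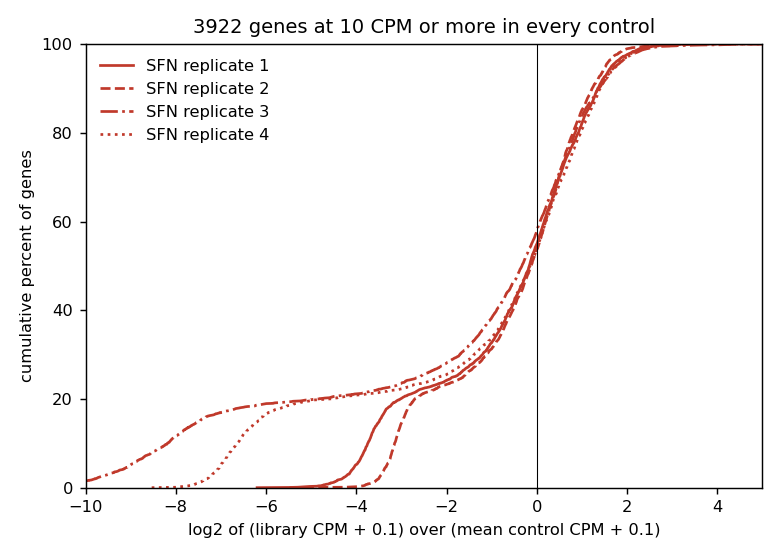
Cumulative percent of the 3922 genes with 10 CPM or more in every control library, by the log2 ratio of each SFN library to the control mean (0.1 CPM added to both). SFN replicates 3 and 4 have a separate arm of genes far to the left, with 19.2% and 16.5% of genes under 1 CPM, while in SFN replicates 1 and 2 the same share of genes lies a few log2 units below control.

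Several of the largest rises by fold were of genes that were all but silent in control. Tni25G01610 measured 0.276, 200, 39.9 and 335 CPM in SFN replicates 1 to 4, which are 3, 3269, 866 and 6793 counts, and 0, 0 and 0.0934 CPM in control replicates 1 to 3, where 4 counts were found in all. The groups did not overlap, but SFN replicate 1 was close to the controls. The fitted log2 fold change of 11.58 (standard error 2.65, adjusted p = 0.0436) depends on how so few counts are handled. Tni13G03950 measured 1.38, 85.2, 12.8 and 32.1 CPM under SFN and 0, 0 and 0.0934 CPM in control (adjusted p = 0.0349). Tni12G00520 was the most abundant of them, with 20.7, 2261, 982 and 4111 CPM under SFN against 2.81, 5.75 and 3.85 CPM in control (log2 fold change 8.80, standard error 1.82, adjusted p = 0.0370). Tni19G04330 measured 4.70, 143, 37.9 and 141 CPM under SFN and 1.10, 1.01 and 4.06 CPM in control.

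In all 10 rises in which the groups overlapped, a set singled out after its values were seen, SFN replicates 2 to 4 were high, and SFN replicate 1 was below the highest control library. Their log2 fold changes were 6.63 to 10.71. The most abundant were Tni12G00480 and Tni12G00490, whose identifiers follow each other on chromosome 12 and lie near that of Tni12G00520. Tni12G00480 measured 11.7, 12935, 9153 and 20487 CPM in SFN replicates 1 to 4, against 15.6, 5.67 and 3.97 CPM in control replicates 1 to 3. Its log2 fold change was 10.31 (standard error 2.38, adjusted p = 0.0436), a value that stands for 3 of the 4 SFN pools. Tni12G00490 measured 4.98, 4457, 4039 and 11421 CPM under SFN against 7.68, 1.85 and 2.66 CPM in control. The 3 Tni12 genes together took 0.00228%, 1.49%, 1.79% and 3.11% of all counts in SFN libraries, against 0.00161% to 0.00220% in control libraries. TSA libraries were divided too: Tni12G00480 measured 8.96, 6984, 0.264 and 28508 CPM in TSA replicates 1 to 4, so that TSA replicates 2 and 4 were high and TSA replicates 1 and 3 were at control level. SFN replicate 4 and TSA replicate 4, of the later library code, had the highest values of their groups, while control replicate 3, of the same code, was low. Without the 3 Tni12 genes, the other 195 rises took 1.09%, 2.18%, 3.49% and 2.57% of counts in SFN libraries and 0.436%, 0.430% and 1.11% in control libraries.

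A further group of rises was seen in every SFN pool. Tni04G00460 measured 24.9, 51.0, 97.0 and 36.1 CPM under SFN against 3.43, 2.86 and 5.42 CPM in control (log2 fold change 3.74, standard error 0.61, adjusted p = 0.0323). Tni24G01890 measured 82.5, 171, 351 and 190 CPM under SFN against 11.5, 11.0 and 23.0 CPM in control (log2 fold change 3.71, standard error 0.66). Tni30G02650 measured 114, 198, 345 and 174 CPM under SFN against 15.8, 10.6 and 23.2 CPM in control (log2 fold change 3.65, standard error 0.58). In all of these the lowest SFN library was more than 3 times the highest control library, SFN replicate 1 was the lowest of its group and SFN replicate 3 the highest. Over all 198 rises SFN replicate 1 was the lowest SFN library in 130 genes and SFN replicate 3 the highest in 134. The median level of the rises was 23.6, 37.0, 55.1 and 33.2 CPM in SFN replicates 1 to 4, against 6.31, 4.81 and 8.30 CPM in control replicates 1 to 3. Tni19G02820 departed from this order, with 47.6, 16.6, 75.8 and 11.8 CPM under SFN against 0.343, 1.77 and 4.04 CPM in control (log2 fold change 4.19, standard error 1.06, adjusted p = 0.0495).

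Among abundant transcripts, Tni06G01900 and Tni19G01600 were the steadiest rises. Tni06G01900 measured 3582, 2733, 2879 and 3526 CPM in SFN replicates 1 to 4, against 950, 390 and 889 CPM in control replicates 1 to 3. Its log2 fold change was 2.10 (standard error 0.47, adjusted p = 0.0431). Tni19G01600 measured 3492, 2298, 2615 and 3209 CPM under SFN against 1084, 607 and 1030 CPM in control, a log2 fold change of 1.68 (standard error 0.42) at an adjusted p of 0.0497. The SFN libraries differed from each other by less than 2 times in both genes, and their lowest value was more than 2 times the highest control value. In TSA libraries Tni06G01900 lay between 2478 and 2835 CPM and Tni19G01600 between 2101 and 2962 CPM, above every control as well. Both calls depended on the fit. On the TMM scale the 137 tested genes above 1000 CPM had a median log2 fold change of 1.25. With library size only, Tni06G01900 was at 1.41 and Tni19G01600 at 0.99, and neither was called. Each was called in 4 of 22 alternative fits, and in 0 of those with 1 library left out.

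None of the 10 most abundant genes was called. Several of them have nearby identifiers on chromosome 3, and these varied widely within both groups. Tni03G02130, the most abundant of all, measured 267633, 164425, 54009 and 107751 CPM under SFN against 165307, 29654 and 29709 CPM in control (log2 fold change 0.99, standard error 0.82, adjusted p = 0.402). Tni03G02120 had a log2 fold change of 0.91 (standard error 0.78) and Tni03G02140 one of 0.42 (standard error 1.26). Tni03G02080 measured 43690, 26033, 77.6 and 12216 CPM under SFN against 63545, 45965 and 2541 CPM in control, with an adjusted p of 0.703. Tni03G02090 had a like spread, at 28778, 19513, 83.8 and 5265 CPM under SFN and 59241, 46493 and 1000.1 CPM in control. Tni23G04610 and Tni12G01830 were also at their lowest in SFN replicate 3, at 39.2 and 457 CPM, and next lowest in control replicate 3, at 669 and 1603 CPM. Over SFN pools Tni03G02140, Tni03G02080, Tni03G02090 and Tni23G04610 thus spanned more than 100 times, and the standard errors of their log2 fold changes were 1.26 to 1.61. Tni05G05780 was steadier, with 24210, 27479, 12503 and 17075 CPM under SFN against 13460, 10076 and 4178 CPM in control (log2 fold change 1.14, standard error 0.54, adjusted p = 0.161). Tni27G01830 measured 17989, 6096, 35347 and 33567 CPM under SFN against 5930, 94.2 and 6905 CPM in control, with an adjusted p of 0.198, and Tni27G01210 had a log2 fold change of -0.48 (standard error 0.62).

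The calls were spread over all 31 numbered chromosomes. The share of tested genes that fell had a median of 6.45% per chromosome and ran between 2.56% on chromosomes 27 and 31 and 8.70% on chromosome 9. The share that rose had a median of 3.65% and ran between 0.452% on chromosome 1 and 6.73% on chromosome 26. On chromosome 1, 14 of 221 tested genes fell and 1 rose, and its median log2 fold change over all tested genes was -0.28, the lowest of any chromosome and the only one below 0. Every other numbered chromosome had a median between 0.04 and 0.53. These shares rest on few genes and were not tested. Falling genes with consecutive identifiers came only in pairs, of which there were 8, and rising genes in 5 pairs, with no run of 3 or more in either direction.

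**Figure D5:**
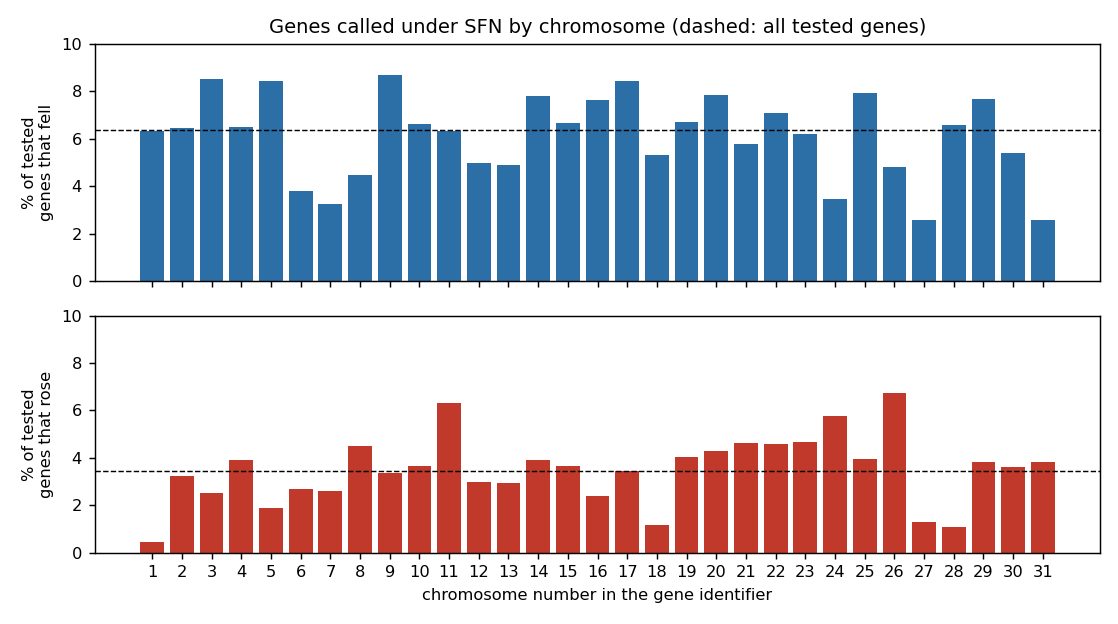
Percent of tested genes that fell (top) and rose (bottom) under SFN on each of the 31 numbered chromosomes, from the number in the gene identifier; the dashed lines mark 6.39% and 3.43%, the shares over all tested genes. Chromosome 1 has the lowest share of rises at 0.452%, and chromosome 9 the highest share of falls at 8.70%.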

How the data were processed

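RNA was sequenced from pooled fat bodies after poly(A) selection, as paired-end reads. Per the labels and the methods of the study, the authors trimmed reads with Trimmomatic 0.39, aligned them with HISAT2 2.2.1 to the Cornell-1 genome of *T. ni*, assigned them to genes with featureCounts. The authors deposited raw counts, without normalization. The library kit does not mark strand, so overlapping and antisense genes cannot be told apart. Libraries were grouped by their titles, and 0 columns were left unmapped. The members and lists were chosen with earlier results of these data known.

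Genes whose CPM averaged over 10 before TMM scaling were kept, so a few tested genes average below 10 on the TMM scale. They were fitted, with the 7 libraries together, in edgeR 4.0.16 (R 4.3.3). The fit used TMM scaling and treatment as the only term (5 residual degrees of freedom). SFN was compared with control by a quasi-likelihood F-test, and p-values were adjusted over all 5772 genes by the Benjamini-Hochberg method. The study speaks of pairing triplicates without giving model terms. No replicate block was used, because SFN replicate 4 has no control of its number and control replicate 3 carries a later library code than SFN replicate 3. Nor does any label say that a number marks a shared cage or day. The choice was made knowing from earlier results of these data that the fits give different counts. Deviations of same-numbered libraries from their group means, in log2 CPM, were hardly correlated (r = -0.08, 0.06 and -0.04). TSA libraries were put on the same scale by the same TMM reference library and entered only the fits of all 11 libraries. Log2 CPM for correlations used a prior count of 2. A CPM of 10 is 109 to 428 counts in these libraries. Named genes are the 8 largest falls and rises among calls without overlap, the 5 most abundant falls and rises, the 10 most abundant genes, the 5 falls with the widest SFN range, Tni19G02820, Tni09G00760, Tni08G04760, and runs of 4 or more calls with consecutive identifiers (none was found). Alternatives were other scalings, filters and thresholds, the likelihood ratio test, DESeq2 1.42.0, replicate and library code terms, all 11 libraries, and fits without each library. Normalised tables and *S. exigua* files were not used here. Figures were drawn with matplotlib 3.10.9.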

Additional observations from a re-analysis of the deposited data

How the results depend on the processing

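Of 567 called genes (369 fell, 198 rose), other scalings gave 340 with DESeq2's size factors (315 fell, 25 rose) and 1187 with library size only (1155 fell, 32 rose). Upper-quartile factors gave 508. The filter on low values mattered too: 1308 genes (1193 fell, 115 rose) at a mean CPM over 1, 1178 (1094 fell, 84 rose) with no filter, and 66 (66 fell, 0 rose) at a mean CPM over 50. The likelihood ratio test called 1698 (1165 fell, 533 rose) and DESeq2's Wald test 2180 (1443 fell, 737 rose). Using all 11 libraries called 1465 (1247 fell, 218 rose). No gene was called (0 in all, 0 falls and 0 rises) with the library code as a term (2111 at an unadjusted p under 0.05), in the earlier library code only (947), at an adjusted p under 0.01, or without control replicate 3 and SFN replicate 3 (1365), the last chosen after seeing the data. Leaving out 1 library at a time gave 0 to 1130 calls, 0 to 1076 falls and 0 to 58 rises. The causes were not tested, apart from fewer libraries or genes where the setting removes them.

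With the replicate block, edgeR called 0 genes (0 falls, 0 rises), with 1240 at an unadjusted p under 0.05 and 2 residual degrees of freedom against 5. All 11 libraries with the replicate block gave 362 calls (282 fell, 80 rose). Deviations of same-numbered SFN and control libraries from their group means correlated at r = -0.08, 0.06 and -0.04. The numbers are thus not shown to pair the libraries.

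The difference in the share of the 10 most abundant genes, 2.04 percentage points, was -3.89 in the earlier library code and -5.46 to 9.76 with 1 library left out, and these numbers of libraries cannot reach a p under 0.05. Among the named genes 2 that were not called changed sign. Tni03G02140 (0.42) was at -0.088 with library size only, at -0.092 with a mean CPM over 50, at -0.35 with the replicate block, and at -0.36 to 0.96 with 1 library left out. Tni12G01830 (-0.09) was at 0.24 with the library code as a term and at -0.88 to 0.50 with 1 library left out. Of the other values of named genes, 476 kept their direction and side of the threshold, 364 kept their direction but were no longer called, and 1 became called. At 10 CPM a library holds 109 to 428 counts.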
